A study of Rattus norvegicus with 22 samples.

Results

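The enzymes described here write, read and remove 2 kinds of silencing mark on chromatin, methylation of cytosine in DNA and the histone marks of the Polycomb complexes. They were listed as 10 genes, namely Dnmt1, Dnmt3a, Dnmt3b, Uhrf1, Tet1, Tet2, Tet3, Ezh2, Suz12 and Bmi1, and were found on the array by the gene name that the scanner files give to each probe. Of the 10 genes, 9 were found, with 11 of the 30367 probes, and the brightest probe over the 22 arrays was taken for each gene. No probe carried the name Suz12, a core subunit of Polycomb repressive complex 2, so that no value is given for it. The brightest probes of Dnmt1 and Tet1 reached a signal well above background on 0 of the 22 arrays, so that the account rests on 7 members, Dnmt3a, Dnmt3b, Uhrf1, Tet2, Tet3, Ezh2 and Bmi1.

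DNMT3A and DNMT3B place methyl groups on unmethylated CpG sites, and DNMT1 copies the pattern onto the new strand after replication, to which UHRF1 recruits it by binding hemimethylated DNA. The TET enzymes oxidize 5-methylcytosine, a step towards its removal. EZH2 is the catalytic subunit of Polycomb repressive complex 2, which methylates lysine 27 of histone H3, and BMI1 is a subunit of Polycomb repressive complex 1, which ubiquitylates histone H2A. Both complexes hold developmental genes and the Cdkn2a locus in a silent state, and DNA methylation of promoters is a known feature of oral squamous cell carcinoma.

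Gene expression was measured in the tongues of 11 male F344 rats aged 33 weeks that had received the carcinogen 4-nitroquinoline-1-oxide (4-NQO) in their drinking water, at 20 ppm over 10 weeks, with tissue taken 23 to 26 weeks after the first exposure. Each rat gave 1 piece of oral squamous cell carcinoma (OSCC) and 1 piece of adjacent phenotypically normal tongue, which makes 11 OSCC and 11 normal arrays. The normal tissue thus came from exposed tongues, and a tongue without exposure was not among the arrays. The sample titles call every animal untreated and the label on normal pieces reads no treatment, whereas the deposited protocol and the study take both pieces from treated rats, and the latter is used here. The animals were identified by number, and the 2 arrays of a rat were compared with each other.

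The 3 slides with normal tissue held no OSCC, and the 4 slides with OSCC held no normal tissue, so that tissue and slide cannot be told apart. All 11 normal arrays were scanned on 1 day together with the OSCC of animals 4 and 9, and the other 9 OSCC arrays on another day. The arrays had between 48.4% and 65.5% of probes well above background, and 13603 probes were so on every array. Over all probes the median log2 difference between OSCC and normal tissue was -0.24, and over the 17002 probes well above background on at least 11 arrays it was -0.04, so that small falls are read beside these medians. In bulk tissue, fewer cells of a type and less RNA per cell cannot be told apart.

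The probes are 60 bases long, and 6 of them are printed here because they show which stretch of a transcript each value stands for, with their positions on the rat genome build rn4 taken from the array's annotation. An annotation of exons on rn4 was not used here. Both Tet2 probes lie on the minus strand of chromosome 2, at chr2:231016073-231016132 and chr2:231016042-231016101, and the 29 bases in capitals are shared by them, so that they are close to 1 measurement.
Tet2, brightest probe: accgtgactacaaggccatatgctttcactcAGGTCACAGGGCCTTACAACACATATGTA
Tet2, other probe: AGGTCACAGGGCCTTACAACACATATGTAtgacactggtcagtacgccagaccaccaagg

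The Ezh2 probe lies on the minus strand at chr4:75713707-75713766 and the Bmi1 probe on the plus strand at chr17:92787818-92787877, where the capitals mark its last codon, a stop codon. The Uhrf1 probe was placed on unassigned sequence, minus strand, at chrUn:25453160-25454463, a span longer than the probe itself. The Dnmt3b probe printed is the dimmer of the pair for that gene, on the plus strand at chr3:144060143-144060202, and its brighter partner lies at chr3:144069022-144069081.
Ezh2 probe: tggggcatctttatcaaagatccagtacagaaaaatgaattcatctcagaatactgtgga
Bmi1 probe: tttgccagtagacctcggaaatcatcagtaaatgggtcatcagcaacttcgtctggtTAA
Uhrf1 probe: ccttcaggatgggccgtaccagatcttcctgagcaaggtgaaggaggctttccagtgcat
Dnmt3b, dimmer probe: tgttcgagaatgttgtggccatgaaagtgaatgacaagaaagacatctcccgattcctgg

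None of the 9 members on the array was called different between OSCC and normal tissue, where a call needed both a 2-fold change and an adjusted p below 0.05 (limma, rat and tissue as terms, Benjamini-Hochberg adjustment over all probes). By this rule 13.8% of all probes were called, 6.86% higher and 6.97% lower in OSCC. On the adjusted p alone 4 of the 9 members passed, Dnmt3b as higher and Dnmt3a, Tet2 and Dnmt1 as lower, beside 44.0% of all probes (16.2% higher and 27.9% lower). Without adjustment, 5 of 9 had a p below 0.05, and 0 of these changed by 2-fold. The methods' t-test on the same pairs likewise found 0 of 9 at an unadjusted p below 0.05 with a 2-fold change.

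The de novo methyltransferases differed in opposite directions. Dnmt3b was 1.93-fold higher in OSCC and Dnmt3a 1.58-fold lower. On a scale where 0 is the 75th percentile of an array, the log2 signal of Dnmt3b in normal tissue ran from -3.87 over a median of -3.55 to -3.18, and in OSCC from -3.74 over -2.78 to -1.27. The groups overlapped, and the spread was wider in OSCC, with a mean of -2.60 ± 0.93 (SD, n = 11) against -3.55 ± 0.22 in normal tissue. The probe was well above background on 7 normal and all 11 OSCC arrays. The mean difference was 0.95 ± 0.26 (SE), higher in 9 of 11 pairs, with an adjusted p of 0.015. It passed the 2-fold limit, at 1.01 to 1.07, when any one of animals 9, 17, 21, 22 and 24 was left out, and kept an adjusted p below 0.05 in all 11 such omissions. The pairs themselves fell apart, with 6 between 1.09 and 2.24 (animals 4, 11, 13, 16, 25 and 26) and the other 5 between -0.30 and 0.35 (animals 9, 17, 21, 22 and 24). Its dimmer probe was well above background on no normal and 3 OSCC arrays and gave a difference of 0.54 (adjusted p of 0.15), higher in 9 pairs.

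Dnmt3a was measured above background on every array, by a probe at chr6:26878369-26878428. Its log2 signal ran from -2.48 over -1.72 to -1.29 in normal tissue and from -3.68 over -2.64 to -1.50 in OSCC. The highest OSCC values lay within the normal range. The difference was -0.66 ± 0.21 (SE), lower in 8 of 11 pairs, with an adjusted p of 0.027. The largest falls were in animals 4, 9, 17 and 25, between -1.72 and -1.26, and animals 13, 21 and 24 had values of 0.12, 0.10 and 0.22. The adjusted p rose to 0.061 without animal 4, 0.063 without animal 9, 0.055 without animal 11 and 0.061 without animal 25.

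**Figure D1:**
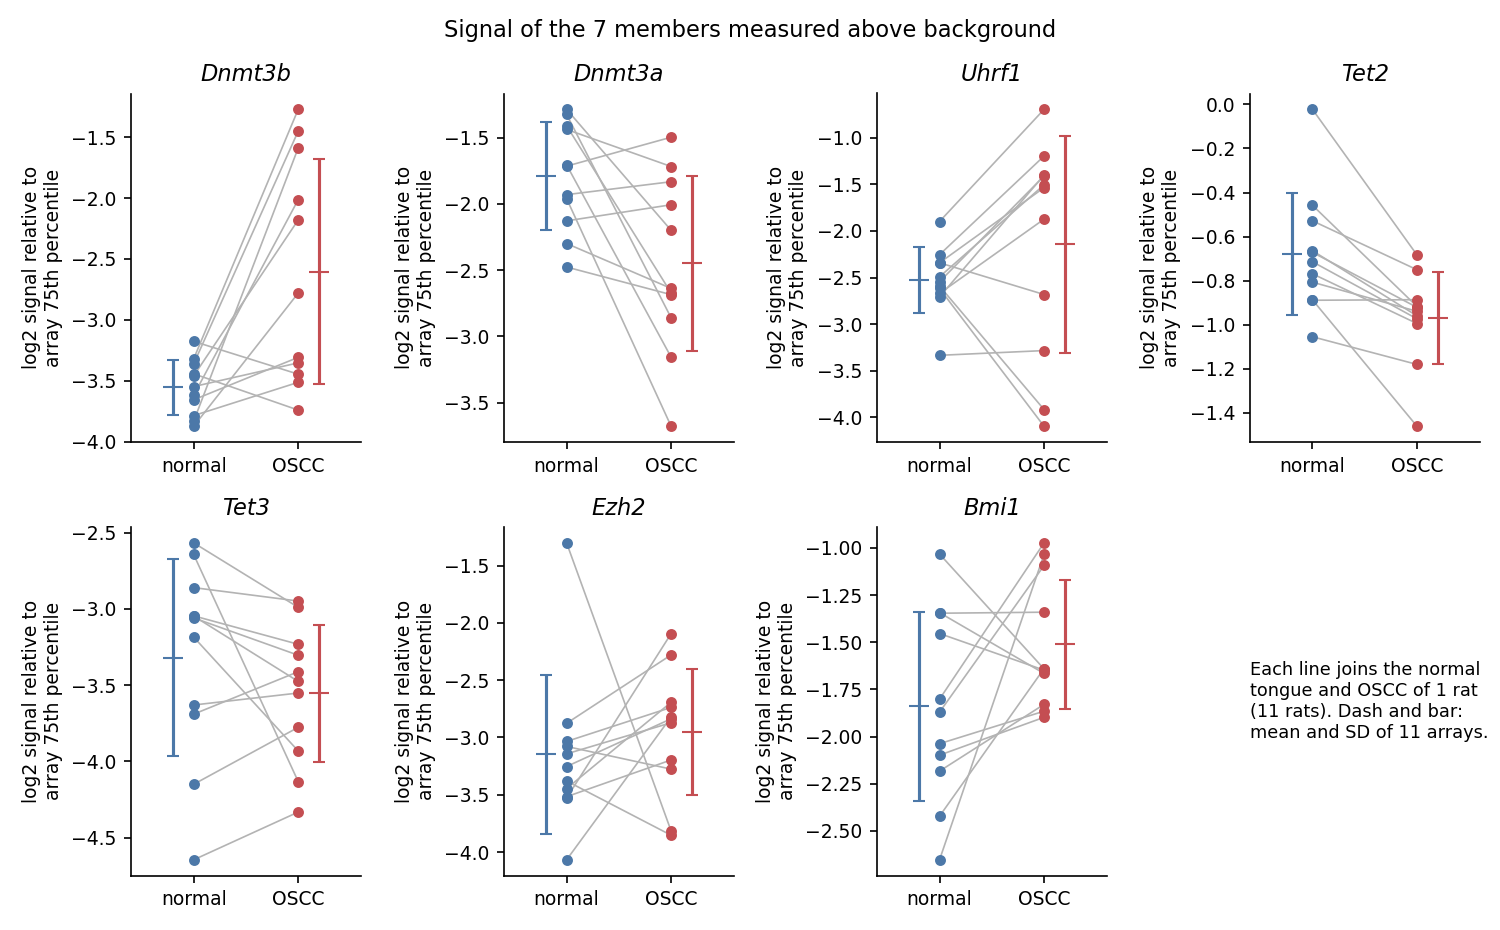
Log2 signal relative to the 75th percentile of each array for the 7 members measured above background, in normal tongue (blue) and OSCC (red), each grey line joining the tissues of 1 rat, with the mean and SD of 11 arrays beside the points. Dnmt3b lines rise in 9 of 11 rats and Dnmt3a lines fall in 8, and each vertical axis has its own range and must not be compared between genes.

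Because both genes were read on the same arrays, their unequal change can be set out without any scaling between arrays. The change of Dnmt3b minus that of Dnmt3a was 1.61 ± 0.37 log2 units (SE), positive in 10 of 11 pairs and from -0.52 in animal 24 to 2.996 in animal 4. An exact sign-flip permutation test over the 11 pairs (two-sided) gave p = 0.0049, or 0.044 after Benjamini-Hochberg adjustment over 9 such contrasts. Leaving out 1 pair kept the mean between 1.47 and 1.82. The adjusted p then lay at 0.018 without animal 24, at 0.053 without animal 21 or animal 22, and at 0.088 without any one of the other 8 animals. Both same-day pairs, of animals 4 and 9, were positive. The contrast still depends on background, since Dnmt3b was not well above it in the normal tissue of animals 16, 17, 25 and 26. It was repeated only with animals left out, and not with another background correction or with the dimmer Dnmt3b probe. Leukocyte and muscle markers moved with the tissue as given further on, and their part in this difference was not tested.

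Uhrf1, the partner of the maintenance enzyme, did not pass over the 11 pairs, yet most pairs shared a difference of like size. Its log2 signal ran from -3.33 over -2.54 to -1.90 in normal tissue and from -4.09 over -1.54 to -0.70 in OSCC, and it cleared background on 10 arrays of the former and 9 of the latter. The OSCC values reached beyond the normal range at both ends. The difference was 0.38 ± 0.28 (SE; 95% interval -0.23 to 0.99), with an adjusted p of 0.27. It was between 0.80 and 1.31 in 7 pairs, 0.05 in animal 17, and -0.34, -1.48 and -1.32 in animals 21, 22 and 24. The study itself describes animals 21, 22 and 24 as variable, on the expression pattern of these same arrays. Without these animals the difference was 0.92 with an adjusted p of 0.00087. They are also the pairs in which Uhrf1 was lower, so that this omission is no test of a rise. In the same fit 6924 probes were called, against 4201 over all 11 pairs. Dnmt1, the maintenance enzyme itself, cannot be described, since its probe at chr8:19926995-19927054 read background on every array, and the pass counted above for it is of background signal, as is the value of Tet1.

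Among the TET enzymes Tet2 gave the narrowest differences of all members. Their mean was close to the median of all probes and lower than that of probes above background. Its log2 signal ran from -1.06 over -0.71 to -0.02 in normal tissue and from -1.46 over -0.94 to -0.68 in OSCC, above background on every array. The difference was -0.29 ± 0.10 (SE), lower in 10 of 11 pairs, with an adjusted p of 0.029, and the overlapping probe gave -0.36 (adjusted p of 0.024). Relative to the median of all probes the fall was -0.05, and relative to that of probes above background -0.25. The adjusted p went above 0.05, to between 0.050 and 0.065, when animal 4, 11, 13, 25 or 26 was left out.

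Tet3, read at chr4:117581086-117581145, was above background on 5 normal and 9 OSCC arrays. Its log2 signal ran from -4.65 over -3.06 to -2.57 in normal tissue and from -4.33 over -3.48 to -2.95 in OSCC, with wide overlap. The difference of -0.23 ± 0.17 (SE) did not pass (adjusted p of 0.25). All 7 pairs in which Uhrf1 was clearly higher had a negative Tet3 difference, from -1.49 to -0.09, and the other 4 had positive ones, from 0.08 to 0.37. The Tet1 probe, which read background on every array, split the same way, at 0.08 to 0.70 in the same 4 pairs. In these, of animals 17, 21, 22 and 24, the 75th percentile of the OSCC array lay below that of the normal array. Tet3 was not above background on either array of animals 17 and 21. No relation with Uhrf1 is therefore read from the split. Within arrays the change of Tet2 minus that of Tet3 was -0.06 ± 0.17 (SE; exact sign-flip p = 0.73, adjusted 0.84), and it changed sign without animal 17 (0.02) or without animals 21, 22 and 24 (0.09).

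**Figure D2:**
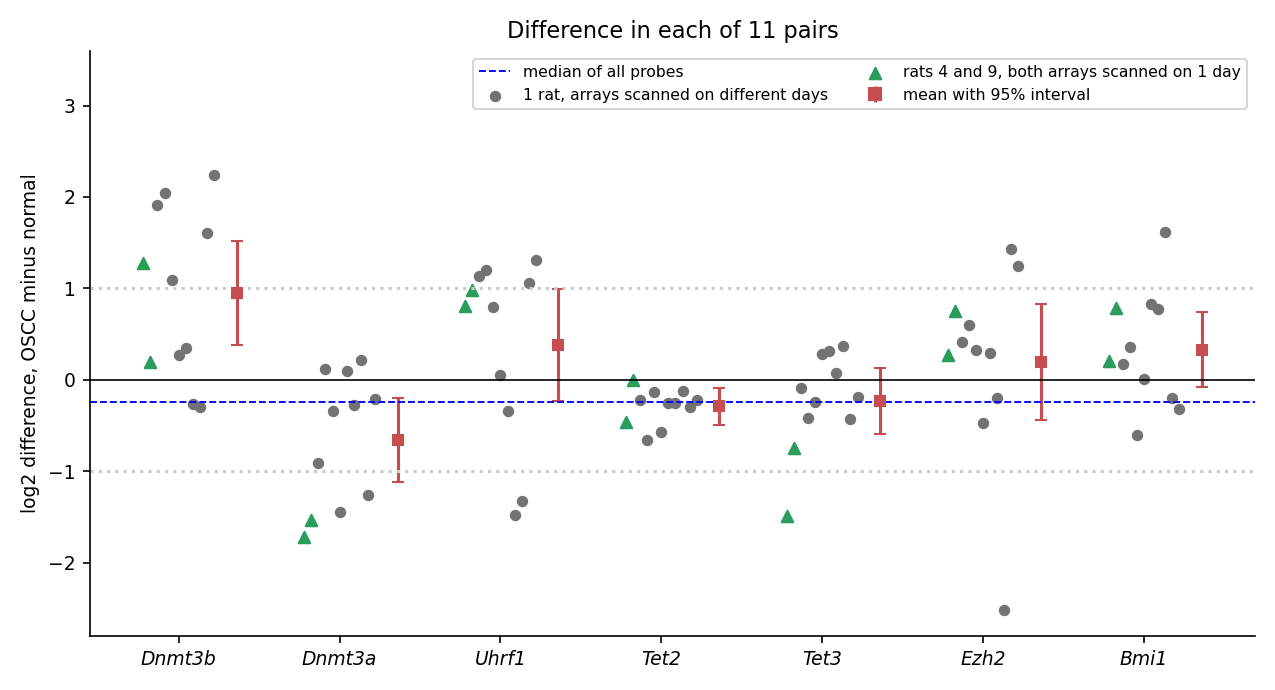
Log2 difference between OSCC and normal tissue in each of 11 rats for 7 members, with triangles for animals 4 and 9, whose arrays were scanned on 1 day, red squares for the mean with its 95% interval, a dashed line at the median of all probes (-0.24) and dotted lines at a 2-fold change. The mean of Dnmt3b (0.95) lies just under the upper dotted line, Tet2 (-0.29) sits on the dashed line, and 1 Ezh2 point, animal 24, lies at -2.52.

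The Polycomb members, Ezh2 and Bmi1, did not pass in either direction. The log2 signal of Ezh2 ran from -4.07 over -3.25 to -1.30 in normal tissue and from -3.85 over -2.84 to -2.09 in OSCC, above background on 10 arrays of each. The highest normal value belonged to animal 24, whose OSCC value of -3.82 was among the lowest. The difference was 0.20 ± 0.29 (SE; 95% interval -0.44 to 0.83), higher in 8 of 11 pairs, with an adjusted p of 0.59. Without animal 24 it was 0.47 (adjusted p of 0.047), and without animals 21, 22 and 24 it was 0.57 (adjusted p of 0.031). Ezh2 passed in 1 of 11 single-pair omissions. The 3 animals were named from these same arrays, so that leaving them out is no test of a rise.

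Bmi1 was above background on every array. Its log2 signal ran from -2.65 over -1.87 to -1.03 in normal tissue and from -1.90 over -1.64 to -0.97 in OSCC, so that 5 normal samples lay below every OSCC sample, while the highest values of the groups were alike. The difference was 0.33 ± 0.19 (SE; 95% interval -0.08 to 0.74), higher in 8 pairs, with an adjusted p of 0.16. Its 3 largest differences were 1.62, 0.83 and 0.78 in animals 24, 21 and 9, and without animals 21, 22 and 24 the difference was 0.05 (adjusted p of 0.80). The change of Ezh2 minus that of Bmi1 was -0.13 ± 0.47 (SE; exact sign-flip p = 0.84), and it turned to 0.27 without animal 24 and to 0.52 without animals 21, 22 and 24.

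Uhrf1 and Ezh2 are made mainly by dividing cells, so a list of 28 genes of DNA replication and mitosis was read beside the members. Of these genes 1, Rrm2, a subunit of ribonucleotide reductase, was called higher, and none lower. Their mean log2 difference was 0.84 to 1.44 in 7 pairs and -2.04 to -0.35 in the 4 pairs of animals 17, 21, 22 and 24, a gap of 34.1% of the whole range, so that no correlation is given over all 11 pairs. In the 7 pairs with higher proliferation genes, Uhrf1, Ezh2 and Dnmt3b were each higher in 7 of 7, and Bmi1 in 4 of 7. In the 4 other pairs Uhrf1 was higher in 1, Ezh2 in 1, Dnmt3b in 2 and Bmi1 in 4. These are counts of the same arrays and not a comparison of groups, since the pairs were told apart by a measured outcome.

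Within the 7 pairs the difference of Uhrf1 had a Pearson r of 0.76 with that of the proliferation genes (exact permutation p = 0.024, adjusted over 7 members 0.17) and a Spearman rho of 0.79 (exact permutation p = 0.048, adjusted 0.17). The r was 0.70 without animals 25 and 26, the pairs farthest from the median. For Dnmt3b the r was 0.68 (exact permutation p = 0.11, adjusted 0.26) and the rho 0.89 (exact permutation p = 0.012, adjusted 0.086), with an r of 0.79 without the same pairs. For Ezh2 the r was 0.67 (exact permutation p = 0.077, adjusted 0.26) and the rho 0.57 (exact permutation p = 0.20, adjusted 0.35), with an r of 0.13 without these pairs. The r of Tet2 went from -0.14 to -0.84 on the same omission. The pairs that were left spanned only 0.84 (animal 9) to 1.03 (animal 13) in the proliferation genes, so that the r values on this omission can show little. No relation among the 7 members passed the adjustment. Within arrays, Uhrf1 minus the mean of the proliferation genes changed by 0.11 ± 0.10 log2 units (SE; exact sign-flip p = 0.29, adjusted 0.52), and Ezh2 minus that mean by -0.08 ± 0.16 (SE; exact sign-flip p = 0.64, adjusted 0.84).

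**Figure D3:**
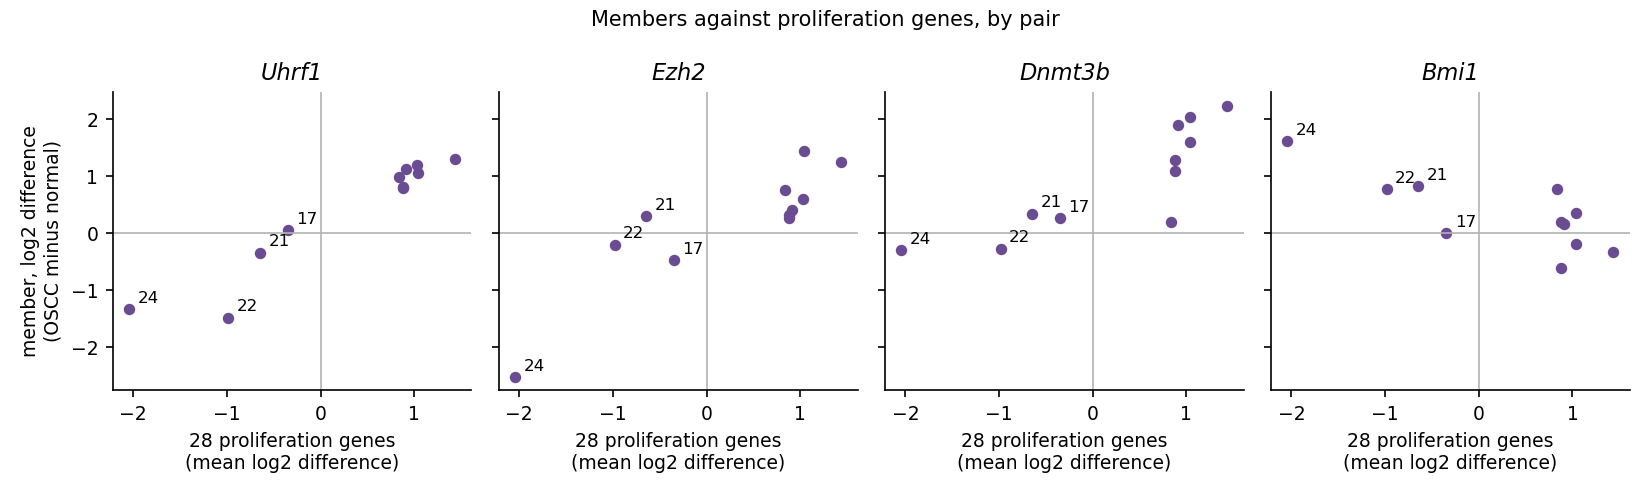
Log2 difference between OSCC and normal tissue of Uhrf1, Ezh2, Dnmt3b and Bmi1 (vertical) against the mean difference of 28 proliferation genes (horizontal), 1 point for each of 11 rats, with numbers on the 4 rats in which the proliferation genes were lower in OSCC. The 7 unnumbered points lie between 0.84 and 1.44 on the horizontal axis and above 0 for Uhrf1, Ezh2 and Dnmt3b.

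E2F factors drive many genes of the S phase, and the members' promoters were searched for 4 of their words, TTTCCCGC, TTTGGCGC, TTTCGCGC and TTTGCCGC, on both strands, some of which can overlap. The windows run from 250 bases before to 50 after each start site in the RefSeq table of assembly GRCr8, which held 16 windows for 9 members and none for Dnmt3b. At least 1 word was found in 4 windows, of Uhrf1, Ezh2, Suz12 and Dnmt1, and in 2.14% of all 33469 windows. Every word holds a CpG, and the windows of Ezh2, Suz12 and Dnmt1 with a word held 30, 38 and 17 CpG sites. A share among windows of like CpG content was not taken, so that no excess of words is read. The word of Ezh2 began 10 bases and that of Dnmt1 26 bases after the start site. One of the 3 Uhrf1 windows held words at -193 and -99 and 35 CpG sites, beside a median of 7 over all windows, and its 250 upstream bases are printed because no other member window held more than 1 word. They lie on the plus strand at chr9:1222936-1223185 of GRCr8, with the words in capitals.
Uhrf1 promoter: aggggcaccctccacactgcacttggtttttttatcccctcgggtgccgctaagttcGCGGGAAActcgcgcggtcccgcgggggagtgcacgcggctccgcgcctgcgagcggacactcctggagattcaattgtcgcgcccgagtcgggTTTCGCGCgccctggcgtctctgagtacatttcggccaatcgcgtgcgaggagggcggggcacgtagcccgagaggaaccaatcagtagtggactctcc

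Among other genes that act on DNA methylation, 23 of 26 listed were on the array, of which 2 were called higher and 2 lower in OSCC, close to the 13.8% of all probes called. Idh2, a mitochondrial enzyme that makes 2-oxoglutarate, fell by 1.69 on the log2 scale (3.22-fold, adjusted p of 0.0026), lower in 9 pairs. Zbtb33 and Zfp57, zinc finger proteins that bind methylated DNA, were called higher but were well above background on no normal array and on 5 and 4 OSCC arrays, so that no fold is given. Dnmt3l, the inactive relative of the de novo enzymes, was called lower, but none of the 22 arrays had its signal well above background. On the adjusted p alone, Hells, a chromatin remodeller needed for DNA methylation, was higher by 0.51, and Zbtb4, which binds methylated CpG, was lower by 0.61, with Hells passing under only 3 of 11 single-pair omissions.

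The enzymes that supply the methyl donor S-adenosylmethionine held 1 call in each direction among 16, again close to 13.8%. Mthfd2, a mitochondrial folate enzyme, was 4.51-fold higher (log2 difference 2.17 ± 0.45, SE; adjusted p of 0.0031), in 10 of 11 pairs, and its other probe gave 2.11. Gnmt, which uses up S-adenosylmethionine by methylating glycine, fell by 1.22 (adjusted p of 0.029), a call lost without animal 11, 13 or 25 and with normexp, where the difference was -0.68 (adjusted p of 0.19). Mat2a, which makes S-adenosylmethionine, was below the 2-fold limit but higher in all 11 pairs, by 0.58 ± 0.11 (SE; adjusted p of 0.0024), and its other probe gave 0.95. The median difference of the list was 0.00, beside -0.24 over all probes. Over the probes well above background on at least 11 arrays the median was -0.04.

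No other Polycomb gene was called at 2-fold. On the adjusted p alone 3 of 9 genes linked to complex 2 and 11 of 21 linked to complex 1 passed, near the 44.0% of all probes that did, so these counts are no result about the lists, and the genes are named after their values were seen. Of the genes of complex 2, Eed, which binds the mark the complex makes, was higher by 0.48 (adjusted p of 0.0057) and the accessory subunit Aebp2 by 0.28 (adjusted p of 0.045). Aebp2 passed in 3 of 11 single-pair omissions and under 1 of 5 other scalings, and its other probe, dim on most arrays, gave -0.17. The probes of Ezh1, the other catalytic subunit, disagreed, although both were above background on every array. The brightest gave -0.68 (adjusted p of 0.0044) and was lower in all 11 pairs, and the other gave -0.04 (adjusted p of 0.86) with 6 pairs lower, so that no direction is given for the gene.

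Of 21 genes linked to complex 1, 5 were higher and 6 lower on the adjusted p, beside 16.2% and 27.9% of all probes. The ubiquitin ligases went apart, with Ring1 lower by 0.61 in all 11 pairs and Rnf2 higher by 0.43 in 8. The other probe of Rnf2 gave 0.96 (adjusted p of 0.00044), higher in all 11 pairs. Of the chromodomain subunits, which dock on the complex 2 mark, Cbx7 was lower by 0.75 and Cbx8 by 0.63, the latter in all 11 pairs. Cbx2 did not pass but gave -0.47 (adjusted p of 0.054), lower in 9 pairs. Cbx6 gave 0.05 on its brightest probe (adjusted p of 0.80) and was higher by 0.59 on its other, dimmer probe (adjusted p of 0.017). Of the subunits that take the place of Bmi1 in variant complexes, Pcgf3 was higher by 0.96 (1.95-fold, adjusted p of 0.00091) in all 11 pairs, also on its other probe (0.79), and Pcgf1 was lower by 0.53 in all 11. Phc3, Yaf2 and Usp16 were higher, and Phc1 and Scmh1 lower, and of these Usp16 passed in 3 and Phc3 in 6 of 11 single-pair omissions.

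The brightest probes of all 14 kept their sign under 5 other ways of scaling or background correction, and those of Ezh1, Ring1, Cbx8, Pcgf1 and Pcgf3 also kept an adjusted p below 0.05 in each. Probes disagreed also for Rbbp4, a histone-binding subunit, whose brightest probe gave -0.21 (adjusted p of 0.17) and whose other probes included values of 0.34 and -0.79.

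**Figure D4:**
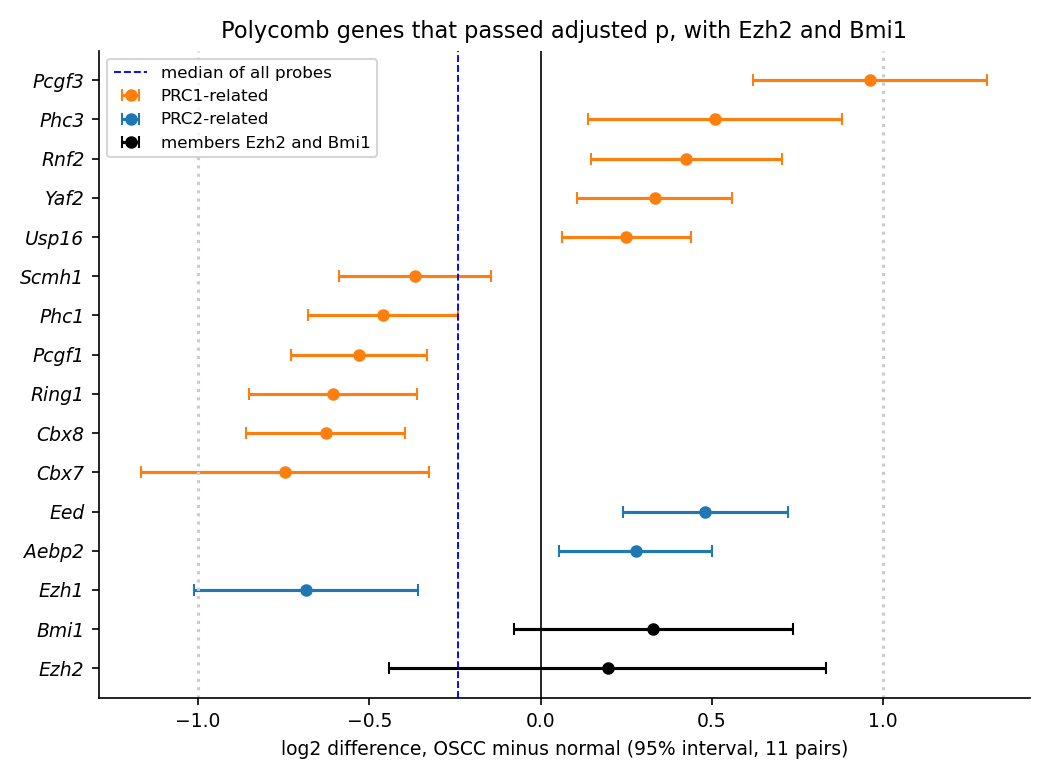
Log2 difference between OSCC and normal tissue with its 95% interval over 11 pairs for the brightest probe of the 14 Polycomb genes that passed the adjusted p (orange for complex 1, blue for complex 2) and for the members Ezh2 and Bmi1 (black), with dotted lines at a 2-fold change and a dashed line at the median of all probes. Pcgf3 at 0.96 and Cbx7 at -0.75 are the outermost points, and no mean lies beyond the dotted lines.

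Of 4 cell cycle inhibitors known as Polycomb targets, 2 were called higher and 1 lower, beside 6.86% and 6.97% of all probes. With only 4 genes listed, these counts are no result about Polycomb targets. Cdkn2a, which encodes p16 and p19Arf, was 5.64-fold higher in OSCC (log2 difference 2.49 ± 0.62, SE; adjusted p of 0.0086), in 10 of 11 pairs. Cdkn2b, its neighbour, was 2.21-fold higher on its brightest probe and 3.26-fold higher on the other. Which Cdkn2a transcript the probe reads was not resolved. Cdkn1c, an imprinted inhibitor, fell by 1.61 (adjusted p of 0.0086), and its other probe gave -1.43. The pair of Cdkn1a probes passed in opposite directions, at -0.75 and 0.48, so that no direction is given.

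The study assayed DNA methylation of 6 genes. It chose Ccna1, Hrasls, Ddit4l, Wif1 and Apc2 from these arrays and the literature, and took up Ptgs2 after an earlier report of its own and these arrays. The expression of the 6 genes on these arrays is thus no independent evidence. The assays read proximal promoters, except for Apc2, where the study reports the first exon. For Ptgs2 the assayed tissue pairs came from another experiment of the study and not from these rats, and there the study also reports a rise of Ptgs2 by quantitative PCR. For the other genes the study does not say which experiment the assayed pairs came from, and most of their sample numbers differ from those of these rats. Ptgs2, which encodes cyclooxygenase-2, was at least 3.20-fold higher, being well above background on 7 OSCC arrays and no normal array. Ccna1, Hrasls, Ddit4l, Wif1 and Apc2 fell, by 1.05 for Apc2, an inhibitor of Wnt signalling, to 3.40 for Ddit4l, an inhibitor of mTOR. Ccna1 was well above background on all 11 normal but only 4 OSCC arrays. With normexp the difference was -0.67 for Ccna1 (adjusted p of 0.27) and -0.64 for Apc2 (adjusted p of 0.074), while Hrasls, Ddit4l and Wif1 kept an adjusted p below 0.05. The methylation assays themselves were not analysed here.

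The make-up of the tissue moved with these results, and its part in them was not tested. Every marker gene of these lists was well above background on at least some arrays, except Pip of the gland list. Skeletal muscle markers were called lower in 12 of 14 and leukocyte markers higher in 16 of 19, with fibroblast markers higher in 8 of 12 and salivary gland markers in 8 of 9. Squamous epithelium markers, the labelled tissue, were at a mean log2 signal of 4.62 to 5.21 in normal tissue and 2.32 to 5.14 in OSCC, with 1 of 13 higher and 2 lower. The mean of the muscle list ran from 6.23 to 7.16 in normal tissue and from 1.89 to 7.83 in OSCC, and it was higher in OSCC in animals 21, 22 and 24. Leukocyte markers ran from -2.35 to -1.07 in normal tissue and from -0.98 to 1.498 in OSCC, without overlap. Endothelial markers gave 0 calls among 10 by limma, with 3 lower on the adjusted p alone.

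The values of the members also moved with how the arrays were scaled and scanned. With scan day as a term the estimate rests on animals 4 and 9 alone, and it was 0.74 for Dnmt3b (adjusted p of 0.41), -1.63 for Dnmt3a (adjusted p of 0.085) and 0.90 for Uhrf1 (adjusted p of 0.34). In the 9 other pairs Dnmt3b was higher by 0.99 (adjusted p of 0.041) and Dnmt3a had a difference of -0.45 (adjusted p of 0.14). With normexp background correction the difference of Dnmt3b was 0.52 (adjusted p of 0.15) and that of Dnmt3a -0.38 (adjusted p of 0.46). Dnmt3b was positive and Dnmt3a negative under all settings tried.

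**Figure D5:**
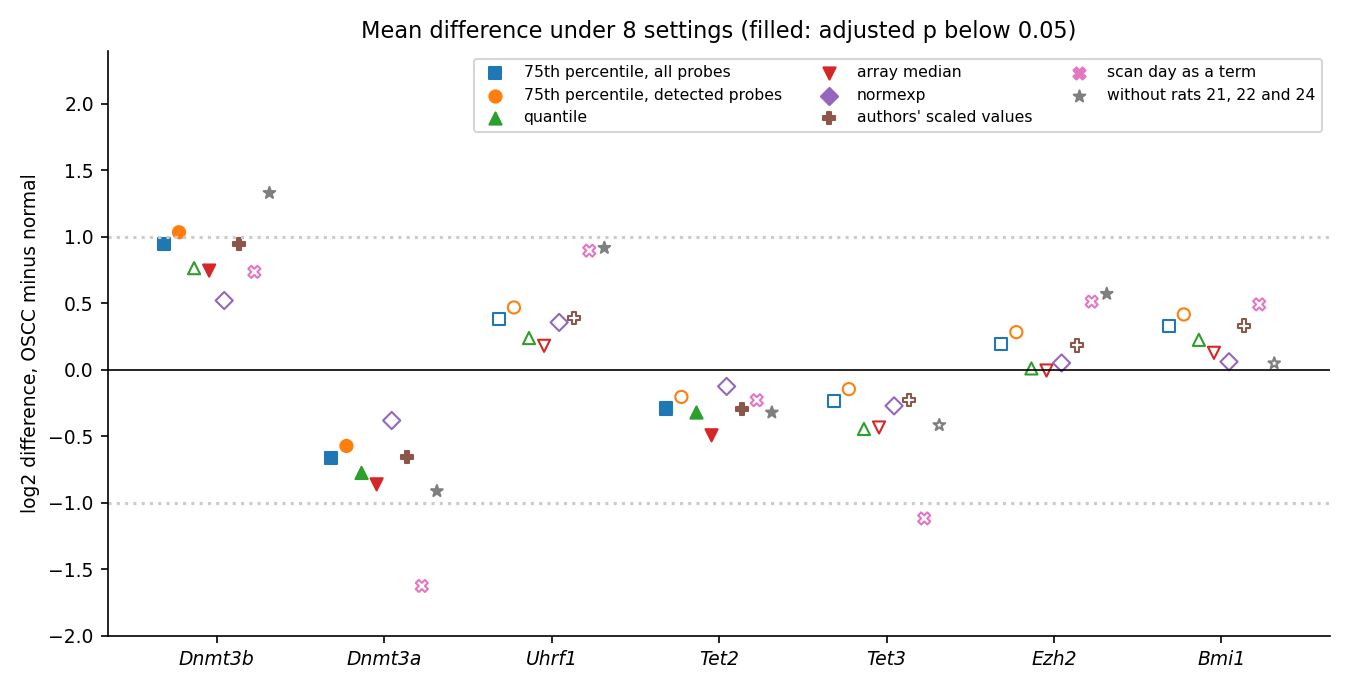
Mean log2 difference between OSCC and normal tissue of 7 members under 8 settings (symbols), filled where the adjusted p was below 0.05, with dotted lines at a 2-fold change. Dnmt3b stays above 0 and Dnmt3a and Tet2 below 0 in all 8, Uhrf1 and Ezh2 are filled only where animals 21, 22 and 24 were left out, and no symbol is filled with scan day as a term or normexp. Animals 21, 22 and 24 were named by the study from these same arrays, so that leaving them out is no test of a rise.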

How the data were processed

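RNA of 11 OSCC and 11 adjacent normal tongue pieces was hybridized by the authors to one-color Agilent Rat GE 4x44K v3 arrays, 42877 non-control spots for 30367 probes. The deposited intensity values were background-subtracted and spatially detrended by the authors with Agilent Feature Extraction 9.5.3.1 (version per the files' headers), without scaling between arrays. The deposited signal table holds the same values divided by the array's 75th percentile, linear with a lowest value of 0.01, and 99.979% of its values at or above 0.5 matched within 2%. The number of arrays and signal over background limit precision.

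Control spots and 9196 outlier spots (0.975%) were left out, log2 signals were averaged per probe, and the array's 75th percentile was subtracted. The difference between the tissues was fitted by limma 3.58.1 (R 4.3.3) on all probes, rat and tissue being the terms. The study's methods name a paired t-test, p below 0.05 and 2-fold. Arrays were paired because a rat gave a piece of each tissue, and the deviations of its arrays correlated across probes between -0.21 and 0.24. The members, the gene lists and the alternatives (background correction, scaling, filter on dim probes, scan day, slide, probes, animals left out) were chosen with earlier results of these data known. Named genes were all members and the called genes of each list, and any other is said to be so. Fold limits against background used the lowest signal well above background on each array. One gene was left out of the Polycomb lists and is not reported here.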

Additional observations from a re-analysis of the deposited data

How the results depend on the processing

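No member was called at 2-fold in the fit reported, and 1, Dnmt3b, was called when detected probes alone set the percentile and without animals 21, 22 and 24. Members past the adjusted p numbered 4, against 0 with normexp, 0 with scan day as a term, 2 with quantile normalization, 2 with the percentile of detected probes, 1 with slide as a random block, 1 in the 9 pairs scanned on different days and 7 without animals 21, 22 and 24. Leaving out 1 pair gave 0 to 1 called and 1 to 6 past the adjusted p, with 1 past it without animal 4, 11 or 25. The wider genes called numbered 15, against 8 with normexp and 0 with scan day, and all probes called numbered 4201, against 1701 with normexp, 3 with scan day and 6924 without animals 21, 22 and 24. Without the rat as a block, the pairing, the counts were 0, 4, 15 and 4227, and no call of a member changed.

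Signs turned for Dnmt1 (0.0141) and Tet1 (0.0288) with quantile normalization, both below background, and for Ezh2 (-0.00542) with the array median. Among contrasts within arrays, Ezh2 minus Bmi1 turned to 0.52 and Tet2 minus Tet3 to 0.0947 without animals 21, 22 and 24. With 1 pair left out, Dnmt3b minus Dnmt3a ranged from 1.47 to 1.82, Ezh2 minus Bmi1 from -0.31 to 0.27, and Tet2 minus Tet3 from -0.167 to 0.0210. The r of Bmi1 with the proliferation genes turned from -0.39 to 0.0374 without animals 25 and 26. The cause was not tested. Animals 21, 22 and 24 were not among the 7 pairs of that relation, so leaving them out could not change it. Low signal limits Dnmt3b, Tet3, Uhrf1 and Ezh2 on some arrays.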
